A study of Mus musculus with 6 samples.

Results

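The mouse heart has chambers of different kinds, and the muscle cells of the atria and of the ventricles make different forms of several proteins. The genes described here are 8 markers of the atria, *Myl4*, *Myl7*, *Sln*, *Mybphl*, *Bmp10*, *Dkk3*, *Nr2f2* and *Kcnk3*, chosen by symbol from the 16018 genes listed in the table of normalized counts. All 8 were found in it and all 8 passed the filter on low values. They were read library by library, as an intended measure of how much atrial RNA each excised heart gave. *Kcnk3* did not follow the other markers and *Nr2f2* varied little, as given below.

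RNAseq was performed on the hearts of 3 female NBCe1-B/C KO mice (KOb/c) and 3 female WT mice, aged between 4 and 5 weeks, all on a C57BL/6J background and bred from heterozygous parents. The KOb/c mouse lacks the B and C variants of the electrogenic sodium bicarbonate cotransporter NBCe1 in every tissue and from conception, so that a change in the heart need not arise in heart muscle. Each library is labelled as heart, and no source used here says whether the atria, the great vessels or the surrounding fat were trimmed off in the same way from each heart. A normalized count is the number of reads on a gene after scaling for the depth of its library. The table held 41364857 to 49100802 reads per library on its genes, and the 3 KOb/c libraries were the deepest.

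The targeted gene, *Slc4a4*, was listed at 264, 945 and 269 normalized counts in the libraries labelled KOb/c replicates 1, 2 and 3, and at 675, 822 and 789 in the 3 WT libraries in the same order. The library labelled KOb/c replicate 2 had the highest count of all 6 and went against its label, and each genotype comparison that follows rests on it as one of 3 libraries. The count covers all variants of the gene together. Leaving this library out kept the direction of the genotype difference for all 8 atrial markers.

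Atrial muscle contracts at lower load and shorter duration than ventricular muscle. In the mouse it carries its own myosin light chains, encoded by *Myl7* (the regulatory chain) and *Myl4* (the essential chain), where the ventricle uses *Myl2* and *Myl3*. Sarcolipin, encoded by *Sln*, is a small membrane peptide that restrains the calcium pump of the sarcoplasmic reticulum in atrial muscle, and *Mybphl* encodes a myosin-binding protein of the atria and the conduction system. *Bmp10* encodes a secreted growth factor of the bone morphogenetic protein family made mainly in the right atrium of the adult heart, and *Dkk3* encodes a secreted protein of the Dickkopf family. *Nr2f2* encodes the nuclear receptor COUP-TFII, which is needed for the identity of atrial muscle and is also made by venous and lymphatic endothelium. *Kcnk3* encodes TASK-1, a background potassium channel of the atrial membrane that is also present elsewhere in the heart.

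The sequence just before the start of transcription was examined for the markers with an entry in the RefSeq promoter table for GRCm38.p6, which were 5 of the 8 (*Myl4*, *Myl7*, *Mybphl*, *Bmp10* and *Nr2f2*). The 250 bases upstream of the start were searched on both strands for 7 motifs chosen after the sequences had been seen, and the same search was made in 32851 windows of that length. Only the 3 promoters that held any of the motifs are shown. They belong to a light chain, a myosin-binding protein and a growth factor whose levels differed at least 4-fold between hearts, as did *Myl4*, which held none. Capitals mark the matches. The *Myl7* window lies at chr11:5898783-5899032 on the minus strand, *Mybphl* at chr3:108364661-108364910 on the plus strand and *Bmp10* at chr6:87428744-87428993 on the plus strand, each written 5′ to 3′ along its gene.
Myl7: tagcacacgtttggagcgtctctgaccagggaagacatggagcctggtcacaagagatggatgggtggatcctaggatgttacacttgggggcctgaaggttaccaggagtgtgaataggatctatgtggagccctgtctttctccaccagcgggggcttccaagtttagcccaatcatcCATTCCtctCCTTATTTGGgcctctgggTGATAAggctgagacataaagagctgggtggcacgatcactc
Mybphl: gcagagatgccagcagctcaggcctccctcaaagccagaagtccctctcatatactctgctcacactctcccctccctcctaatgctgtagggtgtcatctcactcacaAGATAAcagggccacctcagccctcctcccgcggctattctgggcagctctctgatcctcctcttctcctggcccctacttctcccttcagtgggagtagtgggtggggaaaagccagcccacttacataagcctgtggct
Bmp10: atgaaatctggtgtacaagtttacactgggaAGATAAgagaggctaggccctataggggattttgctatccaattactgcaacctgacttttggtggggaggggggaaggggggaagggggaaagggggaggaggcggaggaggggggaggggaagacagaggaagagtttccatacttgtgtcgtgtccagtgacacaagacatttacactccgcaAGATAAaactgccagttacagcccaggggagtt
The letters AGATAA or TGATAA, which GATA factors bind, were in 3 of the 5 windows searched (the 3 shown) and in 16.6% of all windows. In *Bmp10* they occurred at positions −219 to −214 and −33 to −28 from the start, in *Mybphl* at −141 to −136, and in *Myl7* at −42 to −37. The *Myl7* window also held a CArG box, the site of serum response factor, at −61 to −52, and the M-CAT letters CATTCC, which TEAD factors bind, at −70 to −65. A CArG box was in 1.47% of all windows and CATTCC in 12.6%. The other motifs searched were a MEF2 site by name (in 2.92% of all windows), AGGTGT, which T-box factors bind (11.8%), AGGTCA, which nuclear receptors bind (14%), and TATAAA (12.4%). None of the 7 motifs was in the *Myl4* or *Nr2f2* windows. These matches describe the letters only.

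The markers differed first in level. Per kilobase of the longest coding transcript, *Myl7* had a mean of 20760 normalized counts over the 6 libraries and *Myl4* 15342, *Kcnk3* 3393, *Sln* 2709, *Mybphl* 1303, *Dkk3* 969, *Bmp10* 166 and *Nr2f2* 126. The light chains of the contractile apparatus thus stood at the top of the order and the growth factor and the nuclear receptor at its foot. Each gene overlapped its neighbour in this order in its range over the 6 hearts. Within each of the 6 hearts, however, *Myl7* stood above *Myl4*, *Sln* above *Mybphl* and *Dkk3* above *Bmp10*. The other neighbouring pairs did not keep their order in all 6 hearts. The order also depends on which transcript supplies the length.

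The most abundant markers varied widely between hearts of the same genotype. *Myl7* (ENSMUSG00000020469; chr11:5896637-5898782, minus strand) was listed at 2972, 13367 and 16862 normalized counts in KOb/c replicates 1, 2 and 3, and at 6040, 16093 and 18155 in WT replicates 1, 2 and 3. The libraries numbered 1 were the lowest in both genotypes, and the groups overlapped. The means were 11067 ± 7225 in KOb/c and 13429 ± 6482 in WT hearts (SD, n = 3 each). On the scale of log2(normalized count + 1), the KOb/c minus WT difference was −0.47 with a standard error of 0.64 (limma, Benjamini-Hochberg adjusted p = 0.701).

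*Myl4* (ENSMUSG00000061086; chr11:104550663-104595753, plus strand), which pairs with *Myl7* in the atrial myosin head, likewise had its lowest values in the libraries numbered 1. It was listed at 3694, 15317 and 18592 normalized counts in KOb/c replicates 1 to 3 and at 6617, 19000 and 23583 in WT replicates 1 to 3. The highest library exceeded the lowest 6.38-fold for *Myl4* and 6.11-fold for *Myl7*, and within a genotype the spread reached 5.03-fold and 5.67-fold in KOb/c and 3.56-fold and 3.01-fold in WT hearts. The *Myl4* genotype difference was −0.50 on the log2 scale with a standard error of 0.63 (limma, adjusted p = 0.678), less than the spread between hearts of one genotype. Counting error was 1.64% of the count in the lowest *Myl4* library and 1.83% in the lowest *Myl7* library, under these spreads.

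*Mybphl* (ENSMUSG00000068745; chr3:108364911-108380057, plus strand) was listed at 378, 1855 and 2336 normalized counts in KOb/c replicates 1 to 3 and at 645, 2155 and 2606 in WT replicates 1 to 3. The order of the hearts was that of *Myl7*. The genotype difference was −0.38 with a standard error of 0.71 on the log2 scale (limma, adjusted p = 0.787). Of the 50-base stretches of its transcripts, 3.42% also occurred in *Gm12522*, a gene on the opposite strand, and whether counting used strand is not given in the sources used here.

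*Sln* (ENSMUSG00000042045; chr9:53850164-53854560, plus strand) had the widest spread of the muscle genes among the markers, 9.37-fold between the highest and the lowest library. It was listed at 677, 3712 and 4197 normalized counts in KOb/c replicates 1 to 3 and at 1380, 5116 and 6343 in WT replicates 1 to 3. Here too the libraries numbered 1 were below the other 4. The genotype difference was −0.70 with a standard error of 0.74 on the log2 scale (limma, adjusted p = 0.619).

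**Figure D1:**
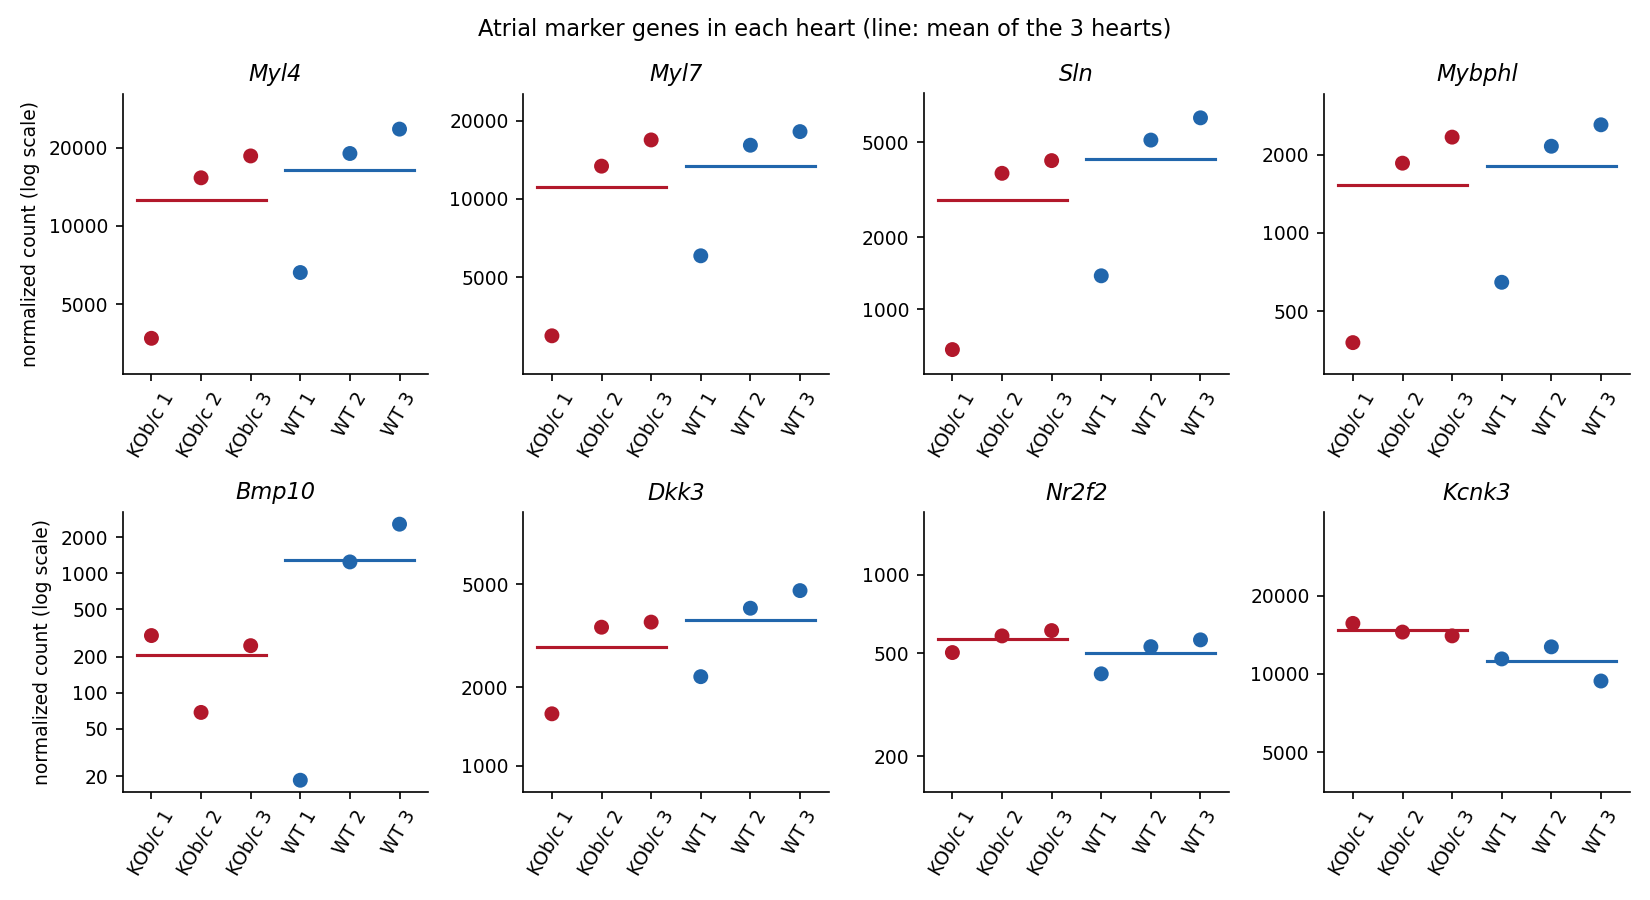
Normalized counts of the 8 atrial markers on a log axis, 1 point for each heart (red KOb/c, blue WT) with a line at the mean of the 3 hearts. For *Myl4*, *Myl7*, *Sln*, *Mybphl* and *Dkk3* the lowest heart is KOb/c replicate 1 and the next is WT replicate 1, *Bmp10* does not follow that order, and *Nr2f2* and *Kcnk3* vary less than 2-fold.

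*Bmp10* (ENSMUSG00000030046; chr6:87428994-87437677, plus strand) went its own way. It was listed at 301, 68.2 and 247 normalized counts in KOb/c replicates 1 to 3 and at 18.4, 1245 and 2580 in WT replicates 1 to 3. The highest library thus exceeded the lowest 140-fold, and that lowest library, WT replicate 1, rested on 18 reads. KOb/c replicate 1, the lowest of all libraries in the 4 muscle markers, ranked above the other KOb/c hearts for *Bmp10*, whereas KOb/c replicate 2, with high light chains, had few *Bmp10* reads. The genotype difference was −1.20 with a standard error of 1.56 on the log2 scale (limma, adjusted p = 0.688). It was −3.37 without WT replicate 1 and 0.15 without WT replicate 3, so that single libraries set its size and sign. On the recovered reads, which weight the high counts more, edgeR gave −2.64 (adjusted p = 0.191) and DESeq2 −2.64 (adjusted p = 0.224).

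*Dkk3* (ENSMUSG00000030772; chr7:112116017-112159057, minus strand) followed the muscle genes over a narrower range. It was listed at 1584, 3412 and 3570 normalized counts in KOb/c replicates 1 to 3 and at 2201, 4037 and 4720 in WT replicates 1 to 3, a 2.98-fold range with the order of *Myl4*. The genotype difference was −0.37 with a standard error of 0.35 on the log2 scale (limma, adjusted p = 0.562).

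*Nr2f2* (ENSMUSG00000030551; chr7:70351944-70366735, minus strand) barely varied. It was listed at 502, 582 and 610 normalized counts in KOb/c replicates 1 to 3 and at 416, 529 and 562 in WT replicates 1 to 3, a 1.47-fold range in which the libraries numbered 1 were again the lowest 2. The genotype difference was 0.18 with a standard error of 0.13 on the log2 scale (limma, adjusted p = 0.458). Of its 50-base stretches, 12.6% also occurred in other annotated genes, and *B130024G19Rik* on the opposite strand overlaps it. Whether either changed its count was not tested. Venous and lymphatic endothelium, another known source of COUP-TFII, had 8 of its 9 listed markers in the table. Their summed levels were 19871 to 22476 normalized counts in KOb/c and 17470 to 18414 in WT hearts. Of the 8, 7 were higher and 1 lower in KOb/c, and 0 passed limma's adjusted threshold. The groups did not overlap for 3 of them, all higher in KOb/c, beside 30.2% of all genes tested (15.6% higher). The part of endothelium in the *Nr2f2* count was not tested.

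*Kcnk3* (ENSMUSG00000049265; chr5:30588170-30625271, plus strand) was higher in the KOb/c hearts. It was listed at 15629, 14471 and 13993 normalized counts in KOb/c replicates 1 to 3 and at 11408, 12696 and 9379 in WT replicates 1 to 3. Each KOb/c heart was above each WT heart, and KOb/c replicate 1, with the least *Myl7*, had the most *Kcnk3*. The means were 14698 ± 841 in KOb/c and 11161 ± 1672 in WT hearts (SD, n = 3 each). The genotype difference was 0.41 with a standard error of 0.11 on the log2 scale, which did not pass the threshold in limma (adjusted p = 0.0901) or edgeR (adjusted p = 0.0916) and passed it in DESeq2 (0.40, adjusted p = 0.00687). Across the alternatives in limma its adjusted p ran from 0.0714 to 0.379, and without the library labelled KOb/c replicate 2 it was 0.42 (adjusted p = 0.149). The exact two-sided permutation test gave p = 0.1, the smallest value that 3 hearts against 3 allow. Of its 50-base stretches, 5.1% also occurred in other annotated genes, *Gm9899* on the opposite strand overlaps it, and their part in the count was not tested.

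None of the 8 markers passed limma's adjusted threshold of 0.05, where 0.00% of the 16016 genes tested did. At an unadjusted p under 0.05, 1 of the 8 passed (*Kcnk3*, higher in KOb/c), beside 3764 genes or 23.5% of all genes tested; those higher in KOb/c were 13.0% of all genes tested. *Kcnk3* was likewise the one marker of 8 whose groups did not overlap, against 30.2% of all genes (15.6% higher and 14.6% lower in KOb/c). By DESeq2 it was 1 of 8, against 9.91% of all genes and 6.15% in the higher direction, and by edgeR 0 of 8 against 0.00%, with 3837 genes at an unadjusted p under 0.05. The median log2 difference of the markers was −0.42, with 2 higher and 6 lower, beside −0.00 over all genes tested. The exact two-sided permutation p of the 7 markers other than *Kcnk3* lay between 0.4 and 0.6.

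**Figure D2:**
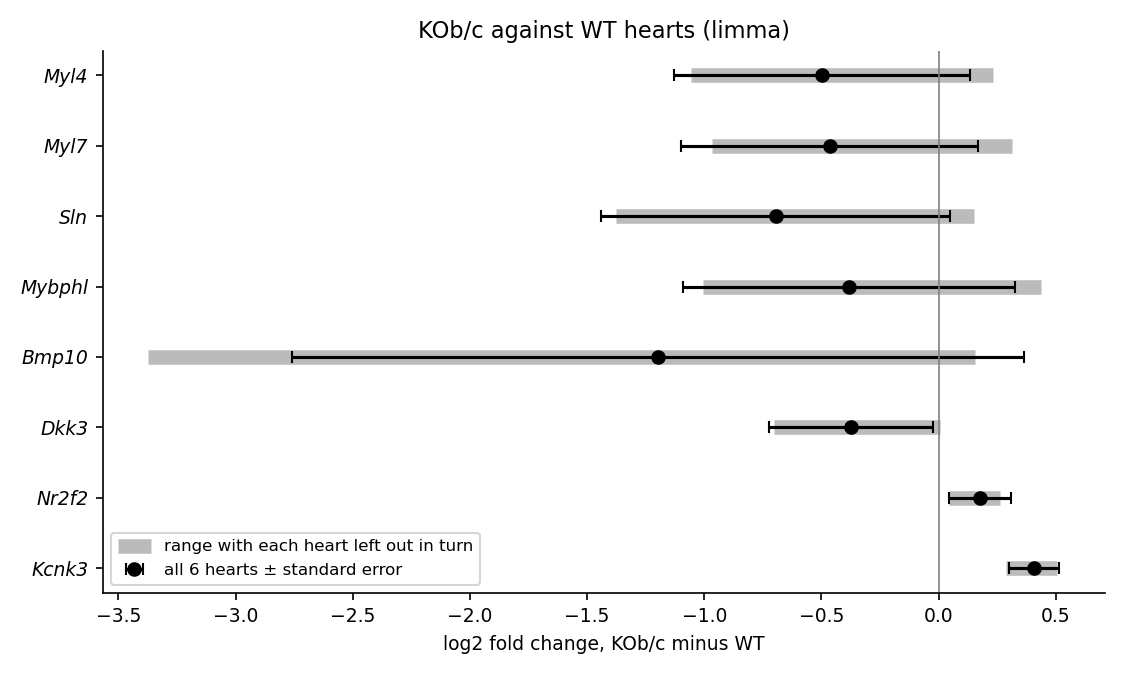
log2 fold change of each marker, KOb/c minus WT, from limma over all 6 hearts (point) with its standard error (black bar) and the range when each heart is left out in turn (grey bar). The grey bars of *Myl4*, *Myl7*, *Sln*, *Mybphl*, *Bmp10* and *Dkk3* reach both sides of 0, while those of *Nr2f2* (0.05 to 0.26) and *Kcnk3* (0.29 to 0.51) stay above it.

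The spread between hearts was the plainer feature of these genes. In 5 of the 8 (*Myl4*, *Myl7*, *Sln*, *Mybphl* and *Bmp10*), the highest library exceeded the lowest at least 4-fold, which 3.10% of the genes tested reached, and with *Dkk3* 6 of the 8 reached 2-fold, against 16.9%. The markers were chosen with earlier results of these data known, and the muscle genes among them moved nearly in proportion. These shares are therefore a description only. In 6 of the 8, all but *Bmp10* and *Kcnk3*, the lowest 2 libraries were KOb/c replicate 1 and WT replicate 1. The mean of the 8 markers on the log2 scale, centred on the mean of the 6 libraries, was −0.987, 0.019 and 0.400 in KOb/c replicates 1 to 3 and −1.056, 0.687 and 0.936 in WT replicates 1 to 3. The level of WT replicate 1 in this mean rests on *Bmp10*: with *Bmp10* left out the mean was −1.157 in KOb/c replicate 1 and −0.670 in WT replicate 1, and the median over the markers was −1.328 and −0.818. KOb/c replicate 1 was thus the lower of the pair by these measures. In bulk RNA, fewer atrial cells and less of these RNAs per atrial cell cannot be told apart.

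Dividing each marker by *Myl7* in the same library shows which markers moved in proportion to it. The normalized count of *Myl4* was 1.24, 1.15 and 1.10 times that of *Myl7* in KOb/c replicates 1 to 3 and 1.10, 1.18 and 1.30 times in WT replicates 1 to 3. The coefficient of variation over the 6 hearts was 6.83% for this ratio against 53.5% for *Myl4* itself. *Mybphl* kept to between 0.107 and 0.144 of *Myl7* (10.1% against 55.8%), and *Sln* to between 0.228 and 0.349 (18.2% against 60.9%), so these 4 muscle genes rose and fell nearly in proportion from heart to heart. *Nppa*, the atrial natriuretic peptide, was the same, with a ratio between 1.77 and 3.36 (19.7% against 60.1%). These ratios and the *Myl7* counts share their libraries and *Myl7* itself.

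The remaining markers did not keep a steady ratio to *Myl7*. *Dkk3* varied as much in its ratio as in its count (38.2% against 35.8%), with the highest ratio, 0.533, in KOb/c replicate 1. It still ranked the hearts as *Myl4* did, over a narrower range, so it moved with the muscle genes but not in proportion. The ratio varied more than the count for *Nr2f2* (84.1% against 12.9%) and *Kcnk3* (104% against 17.6%). Because the counts of these 2 genes varied little, their ratios mostly carry the spread of *Myl7* itself. The *Bmp10* ratio ran from 0.00305 in WT replicate 1 to 0.142 in WT replicate 3, a 46.5-fold range.

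**Figure D3:**
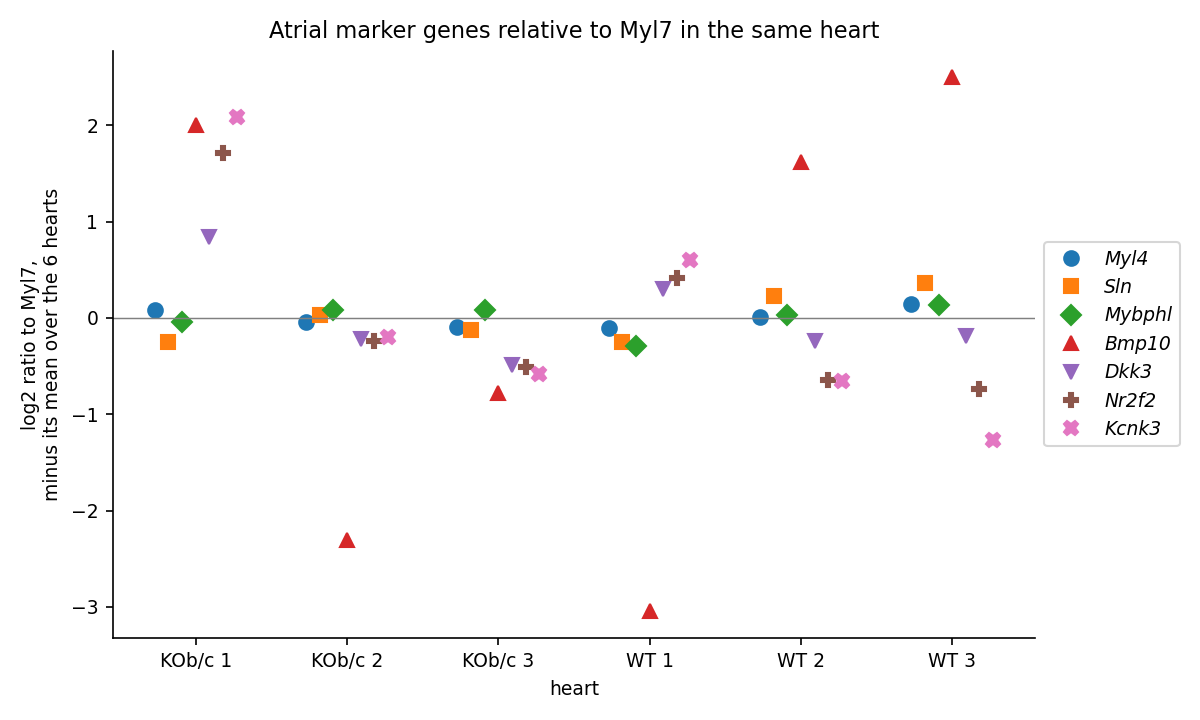
log2 ratio of each marker to *Myl7* in the same heart, minus its mean over the 6 hearts, 1 symbol for each gene. *Myl4*, *Sln* and *Mybphl* stay close to 0 in each heart, *Kcnk3*, *Nr2f2* and *Dkk3* are highest in KOb/c replicate 1, and *Bmp10* scatters over a 46.5-fold range.

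The atrial light chains were next set against their ventricular partners, a ratio that does not depend on the scaling between libraries. Per kilobase, *Myl7* amounted to 1.98%, 9.42% and 11.1% of *Myl2* in KOb/c replicates 1 to 3 and to 3.49%, 9.77% and 10.9% in WT replicates 1 to 3. *Myl4* amounted to 1.51%, 6.68% and 8.0% of *Myl3* in KOb/c and to 2.25%, 7.20% and 8.66% in WT replicates 1 to 3. The ratios ranked the hearts alike, except that KOb/c replicate 3 and WT replicate 3 changed places at the top, and each genotype had 1 low heart. The genotypes differed by −0.29 for *Myl7* to *Myl2* and by −0.27 for *Myl4* to *Myl3* on the log2 scale, with exact two-sided permutation p = 0.7 and 0.6, both 0.7 after adjustment over the 2 ratios. Without KOb/c replicate 1 the differences were 0.50 and 0.49.

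The ventricular chains themselves hardly varied. *Myl2* was listed at 226657, 213888 and 229909 normalized counts in KOb/c and at 260779, 248202 and 249949 in WT replicates 1 to 3, and *Myl3* at 242623, 227678 and 230798 against 291797, 262228 and 270636. Both were lower in each KOb/c heart than in each WT heart, by −0.18 (limma, adjusted p = 0.340) and −0.23 (adjusted p = 0.242) on the log2 scale. DESeq2 gave adjusted p = 0.0563 for *Myl2* and 0.0184 for *Myl3*. The range of the light chain ratios between hearts therefore lay almost wholly in the atrial chains.

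**Figure D4:**
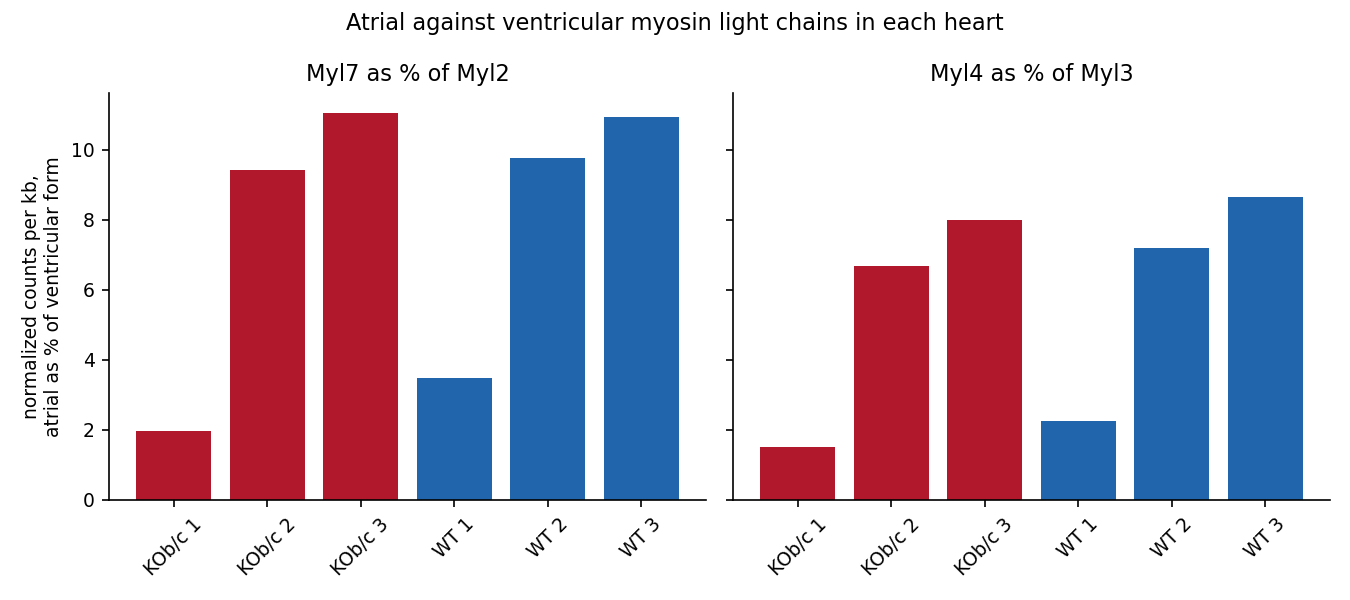
Atrial light chain as a percentage of its ventricular partner in each heart (red KOb/c, blue WT), from normalized counts per kilobase of transcript, *Myl7* of *Myl2* on the left and *Myl4* of *Myl3* on the right. KOb/c replicate 1 and WT replicate 1 lie at 1.98% and 3.49% on the left, and the other 4 hearts between 9.42% and 11.1%.

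Other genes of the atria, of the sinoatrial node and of the ventricles were then examined by list. All 20 other atrial genes were in the table, 12 higher and 8 lower in KOb/c, with a median difference of 0.10 on the log2 scale, and none passed limma's adjusted threshold. *Nppa* was listed at 8086, 41543 and 48535 normalized counts in KOb/c and at 10666, 47073 and 61038 in WT replicates 1 to 3, and *Stard10*, which encodes a lipid transfer protein, at 807, 2371 and 2550 against 1273, 3006 and 3279. The highest difference of the list was that of *Npr3*, the clearance receptor of natriuretic peptides (0.42), and the lowest that of *Hamp*, which encodes hepcidin (−0.69), and neither passed in limma. *Nppa*, *Stard10* and *Hamp* were the 3 of the list with at least a 4-fold range. At an unadjusted p under 0.05 stood *Chrm2*, the muscarinic receptor of the heart (0.37, adjusted p = 0.0947 in limma), the atrial and septal factor *Tbx5* (0.32), *Gnao1*, which encodes a G protein subunit (0.30), and the calcium-activated potassium channel *Kcnn2* (0.25), all 4 higher in each KOb/c heart than in each WT heart. These 4 of 20 compare with 23.5% of all genes tested at that p and 30.2% whose groups did not overlap, so their number is not a result about the list. Of the 4, DESeq2 called *Chrm2* (adjusted p = 0.00899). The list's median range between hearts was 1.73-fold, beside 6.24-fold for the 8 markers and 1.38-fold over all genes tested.

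Of the 12 ventricular genes 11 were in the table (*Hand1* was not analysed here), 6 higher and 5 lower with a median of 0.08, and their median range between hearts was 1.32-fold. *Kcnj2*, the inward rectifier channel of ventricular muscle, had the largest difference (0.56, adjusted p = 0.0815 in limma and 0.000196 in DESeq2). Of the 8 sinoatrial node genes 7 were in the table, without *Isl1*. Of these, 5 were higher and 2 lower in KOb/c with a median of 0.06, and none passed limma's adjusted threshold. *Hcn4*, the pacemaker channel, was listed at 1328, 805 and 1059 normalized counts in KOb/c and at 626, 780 and 547 in WT replicates 1 to 3 (0.69, adjusted p = 0.0921 in limma and 0.00302 in DESeq2). *Hcn4* was highest in KOb/c replicate 1, as was *Kcnk3*, and both were second lowest in WT replicate 1. The widest range in the node list, that of *Vsnl1*, rests on a count of 3.97 in KOb/c replicate 1.

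**Figure D5:**
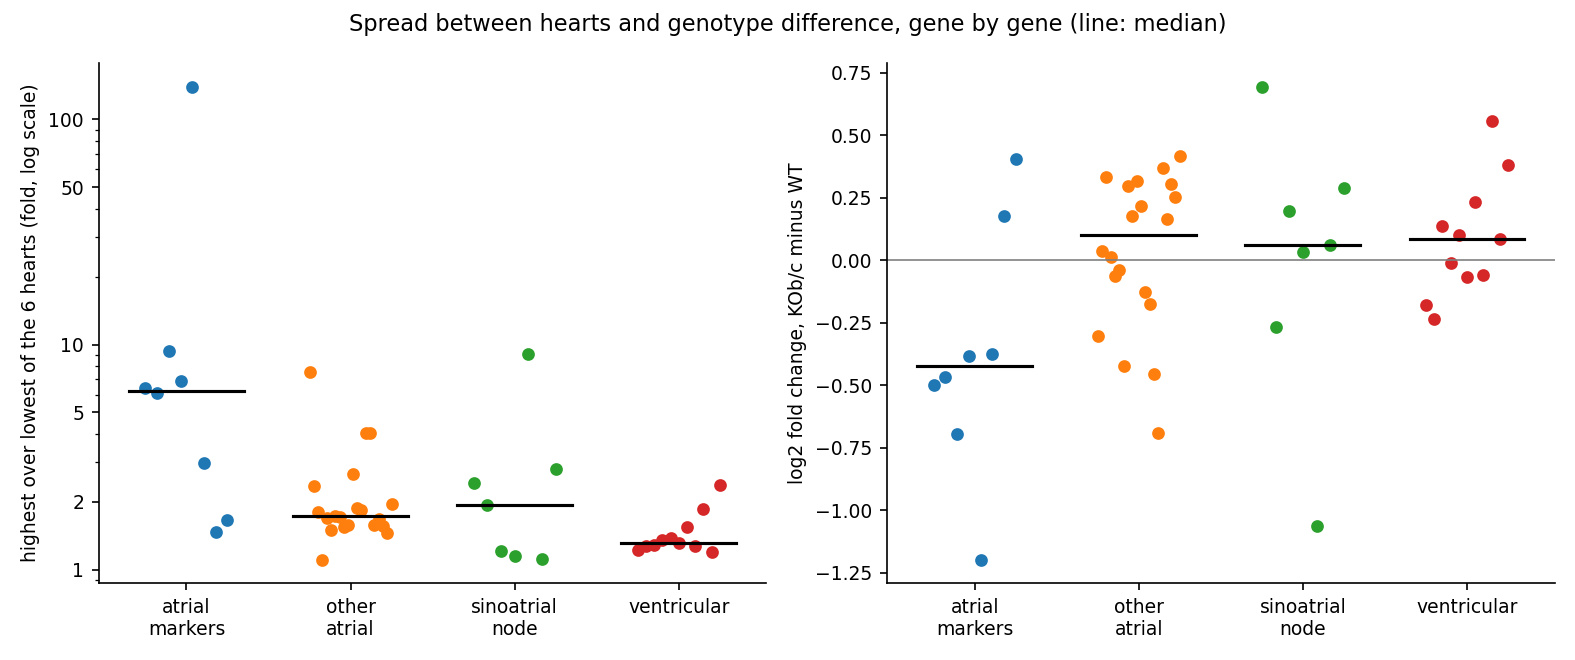
Left, highest over lowest of the 6 hearts for each gene of 4 lists on a log axis, and right, log2 fold change of KOb/c minus WT, with a line at the median. The 8 markers have a median range of 6.24-fold against 1.73-fold for the other atrial genes and 1.32-fold for the ventricular genes, and their median fold change is −0.42 against 0.10 and 0.08.

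The mean of the 8 markers was finally compared with 604 genes that had a mean of at least 100 normalized counts and a range of at least 1 on the log2 scale. The 10 genes most like it were *Gm13054* (Pearson's r = 0.970 over the 6 libraries), *Nppa* (0.961), *Tmem163* (0.959), *Mdfi* (0.949), *Plekha7* (0.947), *Stard10* (0.946), *Gadd45b* (0.945), *Trim30d* (0.943), *Rxfp1* (0.940) and *Sbk2* (0.937). In the 4 libraries other than KOb/c replicate 1 and WT replicate 1, r was 0.980 for *Mdfi*, 0.978 for *Stard10*, 0.946 for *Gm13054*, 0.889 for *Nppa* and 0.860 for *Rxfp1*, between 0.607 and 0.750 for *Tmem163*, *Plekha7*, *Gadd45b* and *Trim30d*, and 0.298 for *Sbk2*. The mean of the 8 markers ran from 0.019 to 0.936 in these 4 libraries, and from 0.296 to 0.599 with *Bmp10* left out. *Bmp10* thus widened the range of the mean there. Pearson's r does not depend on that range, and likeness with *Bmp10* left out was not computed. Among the markers themselves, r with the mean of the other 7 was 0.943 for *Dkk3*, 0.922 for *Myl4*, 0.921 for *Sln*, 0.914 for *Mybphl*, 0.883 for *Myl7*, 0.711 for *Nr2f2*, 0.494 for *Bmp10* and −0.456 for *Kcnk3*. In the 4 libraries other than KOb/c replicate 1 and WT replicate 1 it was −0.539 for *Nr2f2*, 0.907 for *Bmp10* and −0.893 for *Kcnk3*, and between 0.842 and 0.971 for the other 5, so that the sign for *Nr2f2* rests on the libraries numbered 1.

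Tissue that can come away with an excised heart was checked by its own markers, whose part in the results above was not tested. Of 6 lung epithelium genes 1 was in the table, *Ager*, at 9.30 to 22.7 normalized counts. Brown fat genes (4 of 4) summed to 1106, 2128 and 5094 normalized counts in KOb/c and to 1944, 3926 and 2452 in WT replicates 1 to 3, and *Ucp1*, which uncouples respiration in brown fat, was lowest in KOb/c replicate 1 at 17.9 and highest in KOb/c replicate 3 at 2948. Skeletal muscle genes (8 of 9, without *Myh4*) summed to 1138, 4509 and 1956 in KOb/c and to 1652, 2702 and 3279 in WT replicates 1 to 3. Each sum was made up mostly of *Myl1*, at 1000, 2438 and 1614 in KOb/c and 1267, 2383 and 2593 in WT replicates 1 to 3. *Myl1* followed the mean of the 8 markers (Pearson's r = 0.862), so the sum is a poor measure of carried skeletal muscle. *Tnnt3*, the fast skeletal troponin T, stood at 802 in KOb/c replicate 2 and between 11.9 and 188 elsewhere. The mesothelial gene *Upk3b* was listed at 333, 932 and 800 in KOb/c and at 252, 474 and 1310 in WT replicates 1 to 3, lowest in the libraries numbered 1 of both genotypes. The epicardial gene *Wt1* went the other way, at 363, 289 and 286 in KOb/c and at 548, 290 and 427 in WT replicates 1 to 3. Smooth muscle genes (8 of 8) summed to between 96087 and 102965 in KOb/c and between 79279 and 98843 in WT hearts, a sum made up mostly of *Des*, which heart muscle also expresses (56025 to 72327). Of these 8 genes 5 were lower in KOb/c, with a median of −0.24 on the log2 scale, and none passed in limma. Fibroblast and epicardial genes (8 of 8) summed to between 65642 and 78212 in KOb/c and between 67192 and 73124 in WT hearts. Lymphocyte genes (4 of 8) summed to between 134 and 309 over all 6 libraries.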

How the data were processed

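RNAseq was performed on hearts of 3 KOb/c and 3 WT female mice (RNeasy micro kit, Illumina HiSeq, paired reads of 150 bp). The deposited values are a normalized signal, that is, counts that the authors had scaled by library size factors. The submitters' processing notes name Trimmomatic 0.36, STAR 2.5.2b, featureCounts of Subread 1.5.2, DESeq2 and the build GRCm38. Annotation, strand and filter are not given in the sources used here. The lowest gene mean was 9.89, so rarely read genes are missing from the table. All values in each library were whole multiples of 1 read (within 0.01 read), and reads were recovered. The value of 1 read is less certain in KOb/c replicate 1, where it is close to 1, and in WT replicate 2, whose smallest value is 2 reads; edgeR and DESeq2 use both.

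Groups and replicate numbers came from the sample titles, and each column was matched by the animal name in the labels. Symbols for 15980 of 16018 identifiers, positions and lengths came from GENCODE M21 (GRCm38), an annotation chosen here. The test was that of limma 3.58.1, run in R 4.3.3 with a variance trend on log2 of the normalized count plus 1, two-sided, over 16016 genes with a mean of at least 10 and with Benjamini-Hochberg adjustment at 0.05. This scale understates changes of low genes. edgeR 4.0.16 and DESeq2 1.42.0 were run on the recovered reads. In simulated counts limma recovered 85% of 2-fold and 99% of 4-fold changes among 200 changed of 16016 genes, with 6 false calls. The simulation gave genes of like mean the same spread between hearts. Its shares therefore do not hold for markers with a wider spread, such as the light chains, *Sln*, *Mybphl* and *Bmp10*. Precision set by depth covers counting error only. The p-values set the genotype difference against the spread between hearts, which may be in part technical.

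The genes named are the 8 markers, *Slc4a4*, *Myl2*, *Myl3*, *Nppa*, listed members by counts and extremes, and the 10 genes most like the markers' mean. *Stard10*, *Chrm2*, *Tbx5*, *Gnao1*, *Kcnn2*, *Vsnl1*, *Myl1*, *Tnnt3*, *Upk3b*, *Wt1* and *Des* were named after their values were seen. The members and lists were chosen with earlier results of these data known.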

Additional observations from a re-analysis of the deposited data

How the results depend on the processing

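Of the 16016 genes tested, limma called 0, and 1587 passed with DESeq2 (985 of them higher in KOb/c), where edgeR called 0; with each library left out in turn limma called 0 to 3, the 3 being without the library labelled KOb/c replicate 2. Of the 8 markers 0 were called, 1 with DESeq2 (*Kcnk3*), and 0 with each library left out. Causes of these differences were not tested.

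With each library left out, the log2 differences ran from −1.06 to 0.23 for *Myl4*, −0.97 to 0.31 for *Myl7*, −1.38 to 0.15 for *Sln*, −1.01 to 0.44 for *Mybphl*, −3.37 to 0.15 for *Bmp10*, −0.70 to 0.0064 for *Dkk3*, 0.05 to 0.26 for *Nr2f2* and 0.29 to 0.51 for *Kcnk3*. The upper end was without KOb/c replicate 1 for the first 4 and *Dkk3*, and without WT replicate 3 for *Bmp10*. The light chain differences ran from −0.81 to 0.50 for *Myl7* to *Myl2* and from −0.87 to 0.49 for *Myl4* to *Myl3*, turning without KOb/c replicate 1 and, to 0.016 and 0.10, without WT replicate 3. Without both libraries numbered 1, chosen after seeing the data, *Bmp10* stood at −3.77, *Kcnk3* at 0.38 (limma, adjusted p = 0.379) and the ratios at −0.02 and −0.11. *Mybphl* turned to 0.14 with log2 *Myl7* as covariate and, relative to *Myl7*, to 0.084, and *Dkk3* to 0.092; both settings were chosen after seeing the data.

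Same-numbered hearts are different animals, and their deviations correlated at 0.227, 0.072 and −0.029, beside −0.183 to 0.155 for hearts of unlike number. Whether a number stands for a shared litter or batch is not given in the sources used here, and these correlations cannot decide it. The digits in the animal names lie close together for replicates 2 and 3 and far apart for replicate 1. What these digits stand for is not given either. With the replicate block limma called 0 genes (3924 at an unadjusted p under 0.05) and 0 of the 8 markers, and *Kcnk3* had an adjusted p of 0.105. The block lowered the adjusted p of *Myl4*, *Sln* and *Dkk3* to 0.105 each, from 0.678, 0.619 and 0.562 without it. *Mybphl* went from 0.787 to 0.135 and *Myl7* from 0.701 to 0.147. Each of these genes was lower in KOb/c than in the WT heart of the same number, for every number. *Nr2f2* had an adjusted p of 0.273 with the block and *Bmp10* 0.629. The other alternatives (pseudocounts, filters, rescaling, quantile normalization, no variance trend, length and GC correction) kept the direction of all 8 markers and called none. Depth limits only *Bmp10*, whose lowest library held 18 reads.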
